A study of Mus musculus with 14 samples.

Results

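The methylation-sensitive germline genes Dazl, Ddx4, Mael, Sycp1, Sycp3, Asz1, Tdrd1, Piwil2, Slc25a31 and Hormad1 were followed by name through the RNA-seq table of wild-type (WT) and Trincr1-/- mouse ESCs. They are 10 of the 41204 gene identifiers in that table, and each was found once. A mean above 0.2 FPKM over all samples was required for testing. It was passed by 8 of the 10 genes and by 15430 genes in all, while Asz1 and Slc25a31 stayed below it. FPKM scales the fragments of a gene by transcript length and library depth, so levels can be set beside each other between genes.

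The RNA-seq part of the study holds 8 samples in 4 groups of 2, formed by genotype (WT or Trincr1-/-) and medium (2i + LIF or PD + LIF). The ESCs came from 3.5-day blastocysts of a C57BL/6(F) x 129/sv(M) cross and grew on gelatin. The 2i + LIF medium held the MEK inhibitor PD0325901 at 1.0 µM, the GSK3 inhibitor CHIR99021 at 3.0 µM and LIF at 1000 unit/ml. PD + LIF samples were plated for 24 h in 2i + LIF and then kept for 4 days in PD0325901 and LIF without CHIR99021, for which no doses are stated. Trincr1 (Gm2694) is a long noncoding RNA, studied as a partner of the protein TRIM71. Its exons 2 to 4 were cut out with a pair of guide RNAs. Which knockout clone was sequenced is not stated, so a clone and the genotype cannot be told apart. Nothing says that the replicates were separate cultures, so the p-values measure the spread between these samples only.

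Germline genes of this kind are silent in most somatic cells, where CpG methylation of their promoters keeps them off. In ESCs a form of Polycomb complex (PRC1.6) also represses them, and it is brought to DNA by E2F6, which binds TCCCGC, and by MGA with MAX, which bind the E-box CACGTG. Loss of DNA methylation, which is known to accompany culture in 2i + LIF, can raise their transcripts. DNA methylation itself was not measured here.

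Across the 8 samples the 10 genes were low, and no value exceeded 9.20 FPKM. On leaving CHIR99021 they did not move as a block. Ddx4, Mael and Sycp3 rose in both genotypes, Dazl and Hormad1 fell in both, and Piwil2 and Sycp1 did not pass the test. Tdrd1 was also higher in PD + LIF, but it met the limit for testing only through its values there, so its test between media carries no weight. Between genotypes 1 of the 8 tested genes passed the test, in PD + LIF, where 12.1% of all tested genes did. Hormad1 was lower in Trincr1-/- than in WT ESCs in PD + LIF, at 2.67 ± 0.216 against 5.62 ± 0.453 FPKM (SD, n = 2 each). That call was lost when any of the 4 PD + LIF samples was left out, and a smaller share of all genes was called in those fits.

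The stretches upstream of the gene starts are shown for the 6 genes called between the media, because the regulators named above read CpGs and these motifs. Tdrd1 is among them only as a description, since the filter fixed its direction. RefSeq promoter windows on GRCm38.p6, from 250 bases before to 50 bases after the gene start, were at hand for 9 of the 10 genes, all but Piwil2. Each line gives the 250 bases before the start, 5′ to 3′ on the gene's strand. Capitals mark TCCCGC and CACGTG on either strand. The first 4 genes were higher in PD + LIF and the last pair lower.
Ddx4 (chr13:112652311-112652560, minus strand): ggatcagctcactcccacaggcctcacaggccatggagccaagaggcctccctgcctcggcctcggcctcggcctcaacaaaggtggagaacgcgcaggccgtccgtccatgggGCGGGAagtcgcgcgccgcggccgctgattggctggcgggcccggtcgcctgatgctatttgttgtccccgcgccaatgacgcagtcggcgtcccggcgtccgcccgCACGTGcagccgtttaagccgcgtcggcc
Mael (chr1:166238745-166238994, minus strand): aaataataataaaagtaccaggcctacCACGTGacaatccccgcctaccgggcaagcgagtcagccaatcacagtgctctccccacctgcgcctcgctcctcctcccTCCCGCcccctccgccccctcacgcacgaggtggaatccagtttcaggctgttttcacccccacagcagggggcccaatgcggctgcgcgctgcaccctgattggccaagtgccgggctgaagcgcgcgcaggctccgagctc
Sycp3 (chr10:88459337-88459586, plus strand): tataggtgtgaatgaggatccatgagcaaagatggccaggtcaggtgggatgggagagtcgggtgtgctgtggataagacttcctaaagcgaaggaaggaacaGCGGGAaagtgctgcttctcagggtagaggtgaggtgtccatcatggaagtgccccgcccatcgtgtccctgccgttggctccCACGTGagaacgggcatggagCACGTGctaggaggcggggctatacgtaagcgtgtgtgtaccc
Tdrd1 (chr19:56825959-56826208, plus strand): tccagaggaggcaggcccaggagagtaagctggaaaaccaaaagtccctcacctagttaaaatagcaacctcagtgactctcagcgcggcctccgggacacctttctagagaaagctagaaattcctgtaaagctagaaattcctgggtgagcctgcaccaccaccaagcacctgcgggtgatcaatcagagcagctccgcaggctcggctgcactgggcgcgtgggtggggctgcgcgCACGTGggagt
Dazl (chr17:50293621-50293870, minus strand): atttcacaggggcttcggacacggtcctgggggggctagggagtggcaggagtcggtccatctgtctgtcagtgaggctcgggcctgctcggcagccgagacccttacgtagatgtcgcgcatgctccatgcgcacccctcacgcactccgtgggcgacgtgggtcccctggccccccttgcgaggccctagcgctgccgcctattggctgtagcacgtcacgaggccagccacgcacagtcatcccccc
Hormad1 (chr3:95559427-95559676, plus strand): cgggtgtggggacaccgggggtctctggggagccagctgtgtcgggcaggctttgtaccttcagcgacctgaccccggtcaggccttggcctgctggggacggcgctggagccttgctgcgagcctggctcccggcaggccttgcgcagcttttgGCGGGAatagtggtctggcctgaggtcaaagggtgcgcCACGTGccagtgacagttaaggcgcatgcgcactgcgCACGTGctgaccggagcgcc

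The motif TCCCGC, searched on both strands, occurred in 6 of the 9 windows, those of Ddx4, Mael, Sycp1, Sycp3, Slc25a31 and Hormad1. It was in 20.0% of all 32851 windows in the table. The palindrome CACGTG, which reads the same on both strands and shares no bases with TCCCGC in these windows, occurred in 7 of the 9, the same 6 and Tdrd1, against 7.15% of all windows. Both motifs stood in 6 of the 9 windows and in 1.99% of all. Ddx4 carried its E-box 29 bases before the start, Hormad1 had E-boxes at 57 and 20 bases before it, and Sycp3 at 64 and 43 bases before it. Dazl and Asz1 held neither motif in this window. The 9 windows held between 15 CpGs (Sycp3) and 38 CpGs (Ddx4), whereas the median over all windows was 7 and the upper quartile 20. The ratio of observed to expected CpGs was 0.666 to 0.978, against a median of 0.384. Both motifs contain a CpG, and the shares over all windows were not matched for CpG content. A match to letters is a description and does not show binding. Windows both with the pair of motifs (Ddx4, Hormad1) and without them (Dazl) belonged to genes that moved, in opposite directions for Ddx4 and Hormad1.

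**Figure D1:**
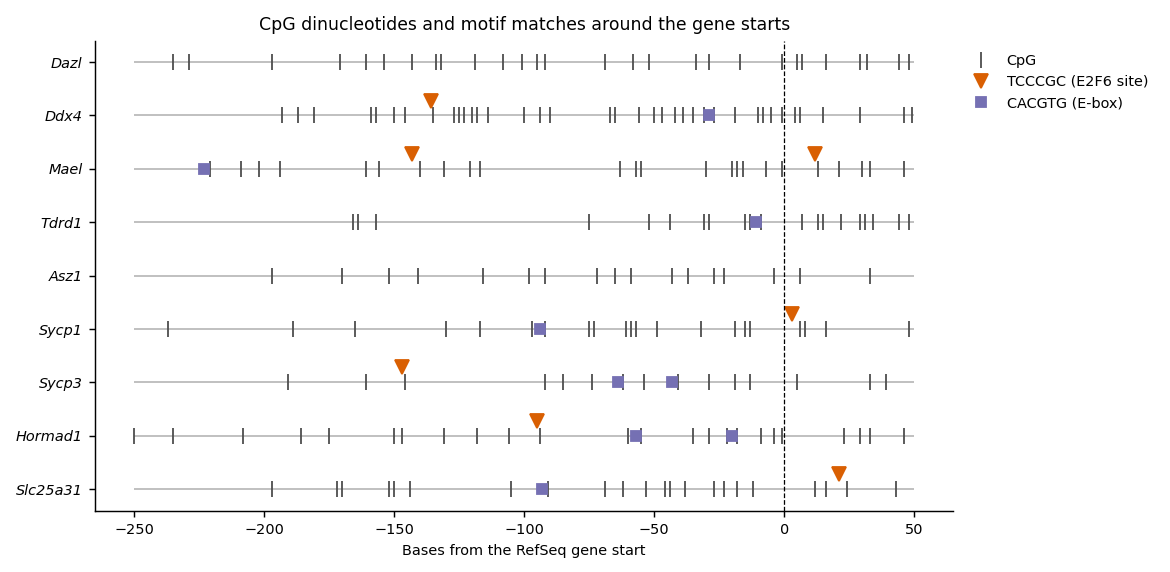
Positions in bases from the RefSeq gene start (horizontal axis, dashed line at the start) of CpG dinucleotides (ticks), TCCCGC on either strand (triangles) and CACGTG (squares) in the 300-base windows of 9 germline genes. Ddx4 has the most CpGs (38) and Sycp3 the fewest (15), and Dazl and Asz1 show no motif.

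Among the genes for RNA-binding proteins and the piRNA pathway, Dazl (ENSMUSG00000010592, chr17:50279394-50293599 on GRCm38) encodes a translational regulator of germ cells. Its level in 2i + LIF was 4.00 and 3.71 FPKM in WT and 3.00 and 2.97 FPKM in Trincr1-/- ESCs. In PD + LIF it was 1.28 and 0.966 FPKM in WT and 0.436 and 0.820 FPKM in the knockout. All 4 samples in 2i + LIF lay above all 4 in PD + LIF. The PD + LIF mean was 0.291 of the 2i + LIF mean in WT and 0.210 of it in the knockout. On the log2(FPKM + 1) scale, which is used for all fold changes here and understates changes of low genes, Dazl fell by 1.20 in WT (SE 0.150, limma adjusted p = 0.000539) and by 1.30 in the knockout (SE 0.150, adjusted p = 0.000373). The Trincr1-/- samples lay below the WT samples in both media, but neither difference passed the test (limma adjusted p = 0.454 in 2i + LIF and 0.142 in PD + LIF). In bulk RNA, fewer cells with a transcript and less of it per cell cannot be told apart.

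Ddx4 (ENSMUSG00000021758, chr13:112598333-112652310) encodes the germ granule RNA helicase VASA. It stood at 1.94 and 1.84 FPKM in WT and at 1.52 and 0.962 FPKM in Trincr1-/- ESCs in 2i + LIF. In PD + LIF it reached 3.24 and 4.42 FPKM in WT and 4.55 and 4.30 FPKM in the knockout. The media did not overlap, while the genotypes overlapped in PD + LIF. Ddx4 rose by a log2 fold change of 0.73 in WT (SE 0.168, limma adjusted p = 0.00890) and of 1.29 in the knockout (SE 0.168, adjusted p = 0.000679). The rise in WT lost its call without replicate 2 of WT in PD + LIF (adjusted p = 0.0573). The rises in the knockout and in WT differed by 0.56 (95% interval -0.0019 to 1.12), which did not pass the test (limma adjusted p = 0.264).

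Mael (ENSMUSG00000040629, chr1:166201385-166238744) encodes Maelstrom, which acts in transposon silencing. In 2i + LIF its values were 0.373 and 0.932 FPKM in WT and 0.431 and 0.220 FPKM in the knockout, which correspond to an estimated 3.0 to 14.9 fragments. In PD + LIF they were 2.14 and 1.98 FPKM in WT and 1.47 and 1.35 FPKM in the knockout. Every PD + LIF sample was above every 2i + LIF sample. The log2 fold change was 0.91 in WT (SE 0.181, limma adjusted p = 0.00455) and 0.87 in the knockout (adjusted p = 0.00606). The knockout samples in PD + LIF were below the WT samples, with means of 1.41 ± 0.0867 and 2.06 ± 0.112 FPKM (SD, n = 2 each), and this did not pass the test (limma adjusted p = 0.261).

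Tdrd1 (ENSMUSG00000025081, chr19:56826209-56870012), a Tudor domain protein of the germ granule, had the lowest mean over all samples of the 8 tested genes. It was at 0.124 and 0.0352 FPKM in WT and at 0.0525 and 0 FPKM in Trincr1-/- ESCs in 2i + LIF, an estimated 0 to 7.5 fragments. The PD + LIF values were 0.365 and 0.327 FPKM in WT and 0.650 and 0.665 FPKM in the knockout. Both groups in 2i + LIF had means under the 0.2 FPKM limit, so Tdrd1 was tested only because of its PD + LIF values and had to differ between the media. Its log2 fold changes of 0.32 in WT and 0.69 in the knockout are given as a description, with no test. The difference between genotypes in PD + LIF, a log2 fold change of 0.30 (95% interval 0.03 to 0.57), did not pass the test (limma adjusted p = 0.135). Its highest values, those of the knockout in PD + LIF, helped it past that limit, so this test carries no weight.

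Piwil2 (ENSMUSG00000033644, chr14:70372480-70429094), a PIWI protein that carries piRNAs, varied between 0.904 and 1.51 FPKM over the 8 samples. The WT samples stood at 1.25 and 1.51 FPKM in 2i + LIF and at 1.07 and 0.904 FPKM in PD + LIF. The knockout samples stood at 1.11 and 1.18 FPKM and at 1.10 and 0.998 FPKM. Every 2i + LIF sample lay above every PD + LIF sample, by a narrow gap (1.11 against 1.10 FPKM, both in the knockout). The log2 difference between media was -0.26 in WT (95% interval -0.54 to 0.03) and -0.07 in the knockout (-0.35 to 0.22). Neither passed the test. Asz1 (ENSMUSG00000010796, chr6:18050964-18109061), a germ granule protein anchored to mitochondria, was near the limit of detection. It was at 0.109 and 0.217 FPKM in WT and at 0.0769 and 0.433 FPKM in the knockout in 2i + LIF. In PD + LIF it was at 0.0468 FPKM in 1 WT sample and listed at 0 in the other 3 samples. It had an estimated 9.5 fragments at most in any sample and was left out by the filter. Without the filter limma called none of its contrasts, with a log2 difference between media of -0.31 in the knockout (adjusted p = 0.137).

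Among the genes for meiotic chromosomes, Sycp3 (ENSMUSG00000020059, chr10:88459569-88473236) encodes a protein of the lateral element of the synaptonemal complex. It was at 1.73 and 1.66 FPKM in WT and at 2.28 and 1.38 FPKM in the knockout in 2i + LIF. Its PD + LIF values were 6.14 and 6.38 FPKM in WT and 5.30 and 3.93 FPKM in the knockout, and the media did not overlap. The mean was 3.70-fold higher in PD + LIF in WT (log2 fold change 1.43, SE 0.182, limma adjusted p = 0.000566) and 2.53-fold higher in the knockout (log2 fold change 1.00, adjusted p = 0.00321). In PD + LIF the knockout samples lay below the WT samples without passing the test (limma adjusted p = 0.221). The locus lies inside that of Chpt1, a gene of the other strand, and 338 bases of their transcripts match at 99.4% identity. Whether the counting used strand is not given in the sources used here. Chpt1 ranged from 6.05 to 7.25 FPKM in 2i + LIF and from 4.80 to 7.04 FPKM in PD + LIF, and its log2 differences between media, -0.12 in WT and -0.38 in the knockout, did not pass the test.

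Hormad1 (ENSMUSG00000028109, chr3:95559677-95587671) encodes a HORMA domain protein of unsynapsed meiotic chromosome axes and had the highest mean of the 10 genes. It was at 8.34 and 9.20 FPKM in WT and at 8.65 and 6.19 FPKM in the knockout in 2i + LIF, so the genotypes overlapped. In PD + LIF it was at 5.30 and 5.94 FPKM in WT and at 2.52 and 2.82 FPKM in the knockout, with no overlap. From 2i + LIF to PD + LIF it fell by 0.56 on the log2 scale in WT (SE 0.151, limma adjusted p = 0.0168) and by 1.18 in the knockout (SE 0.151, adjusted p = 0.000600). The fall in WT lost its call without replicate 2 of WT in 2i + LIF (adjusted p = 0.0923) or without replicate 1 of WT in PD + LIF (adjusted p = 0.0932).

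Between genotypes in PD + LIF, the knockout mean of Hormad1 was 0.475 of the WT mean, a log2 fold change of -0.85 (SE 0.151, 95% interval -1.20 to -0.50, limma adjusted p = 0.0161). The same contrast in 2i + LIF gave -0.23 (95% interval -0.58 to 0.13, adjusted p = 0.551). The difference of these 2 effects was -0.62 (95% interval -1.12 to -0.12) and did not pass the test (limma adjusted p = 0.180). With a PD + LIF sample left out, the log2 fold change stayed between -0.92 and -0.78 and the adjusted p lay between 0.0612 and 0.106. Fitted on the 4 PD + LIF samples alone, it had an adjusted p of 0.0535.

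Sycp1 (ENSMUSG00000027855, chr3:102818499-102936100), a protein of the transverse filaments of the synaptonemal complex, was at 1.02 and 1.20 FPKM in WT and at 0.863 and 1.12 FPKM in the knockout in 2i + LIF. Without CHIR99021 the values were 1.06 and 0.607 FPKM in WT and 0.764 and 0.833 FPKM in the knockout. These ranges overlapped in WT between the media and in each medium between genotypes, while the media did not overlap in the knockout. The log2 difference between media was -0.21 in WT (95% interval -0.58 to 0.15) and -0.14 in the knockout (-0.51 to 0.22). Neither passed the test. Slc25a31 (ENSMUSG00000069041, chr3:40708855-40725593), a testis ATP/ADP carrier, was at 0.176 and 0.0586 FPKM in WT and at 0.233 and 0 FPKM in the knockout in 2i + LIF. The PD + LIF samples held 0.0505 and 0.242 FPKM in WT and 0.181 and 0 FPKM in the knockout. These are 0 to 4.0 estimated fragments, and no difference was detectable at this depth.

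**Figure D2:**
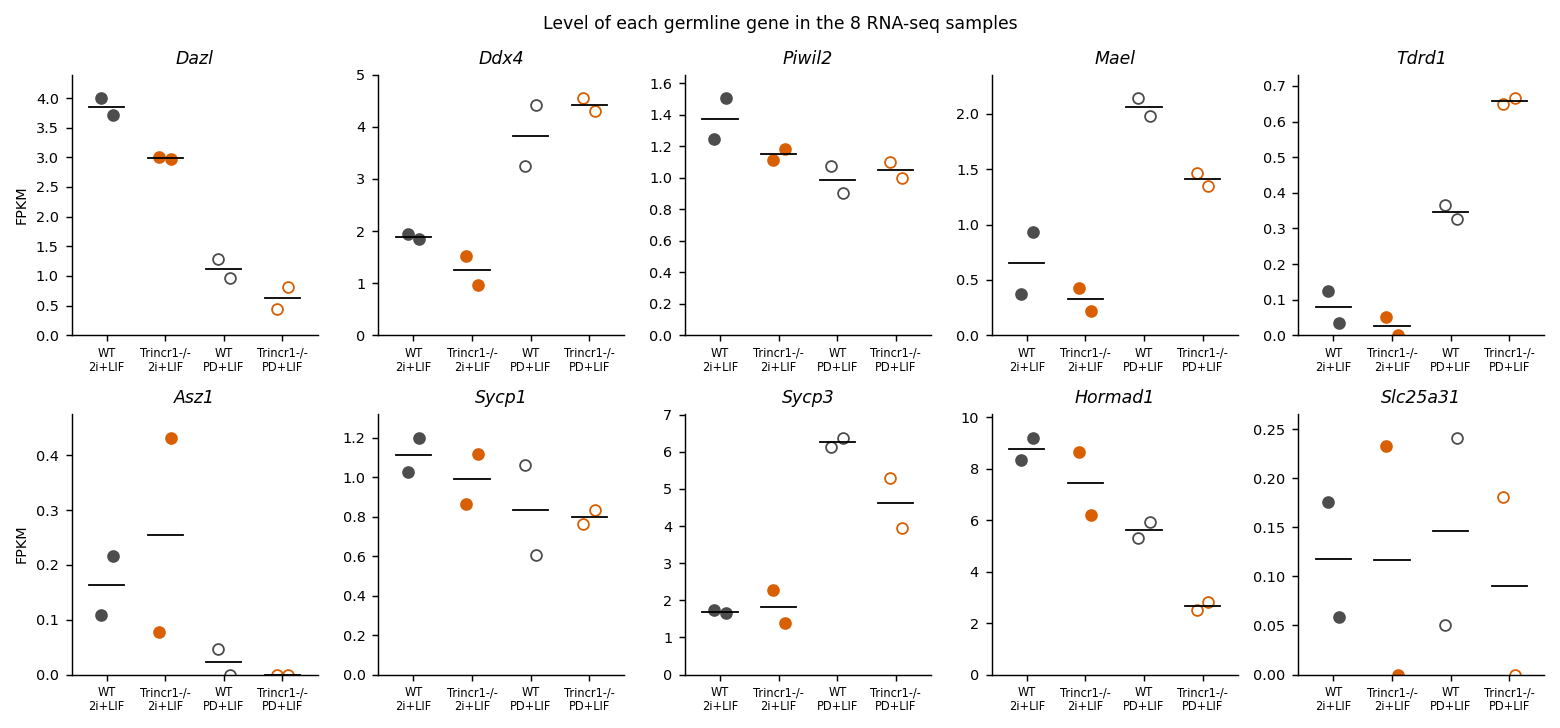
Level in FPKM (vertical axes, each from 0) of the 10 germline genes in the 8 samples, with 1 point per sample, the mean of the 2 replicates as a bar, WT in grey and Trincr1-/- in orange, filled for 2i + LIF and open for PD + LIF. Ddx4, Mael, Sycp3 and Tdrd1 are higher and Dazl and Hormad1 lower in PD + LIF, and Hormad1 is lowest in Trincr1-/- ESCs in PD + LIF.

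The order of the levels changed with the medium. In WT ESCs in 2i + LIF it ran from Hormad1 (mean 8.77 FPKM) over Dazl (3.86), Ddx4 (1.89), Sycp3 (1.69), Piwil2 (1.38) and Sycp1 (1.11) to Mael (0.652 FPKM). Samples of neighbouring genes in this order did not overlap, although their gaps were small from Ddx4 down. Asz1, Slc25a31 and Tdrd1 followed, each overlapping with the next. In WT ESCs in PD + LIF the order of mean FPKM was Sycp3 (6.26), Hormad1 (5.62), Ddx4 (3.83), Mael (2.06), Dazl (1.12), Piwil2 (0.989), Sycp1 (0.833) and Tdrd1 (0.346), and only Dazl with Piwil2 and Piwil2 with Sycp1 overlapped. In Trincr1-/- ESCs in PD + LIF Sycp3 (4.61) and Ddx4 (4.43) overlapped at the top, Hormad1 came next (2.67), and Dazl (0.628) overlapped with Tdrd1 (0.658). Summed over the 10 genes, the level was 19.07 to 20.4 FPKM in WT and 14.5 to 18.2 FPKM in Trincr1-/- ESCs in 2i + LIF, and 20.7 to 21.8 FPKM and 15.7 to 17.0 FPKM in PD + LIF.

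Counted over the 8 tested genes, 4 were higher and 2 lower in PD + LIF in WT ESCs, or 3 and 2 of 7 without Tdrd1, whose direction the filter fixed. The background is large in this comparison, since limma called 30.9% of all 15430 tested genes higher and 21.3% lower. In Trincr1-/- ESCs the counts were again 4 and 2, or 3 and 2 of 7 without Tdrd1, against 29.6% and 20.3% of all genes. The median log2 fold change of the 8 genes was 0.05 in WT and 0.31 in the knockout, beside 0.08 and 0.07 over all genes. Without Tdrd1 the middle value of the 7 was that of Sycp1 in WT (-0.21) and of Piwil2 in the knockout (-0.07). All of these comparisons and those between genotypes draw on the same 4 groups, so each shares samples with others.

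Counted between genotypes, 0 of the 8 genes passed limma's test in 2i + LIF, where 1.21% of all genes did, and 0 had an unadjusted p under 0.05, against 14.6% of all genes. In PD + LIF 0 were higher and 1 was lower, against 6.29% and 5.77% of all genes. An unadjusted p under 0.05 was reached by 3 genes there, Dazl and Hormad1 with lower and Tdrd1 with higher values in the knockout, and by 28.5% of all genes. Tdrd1 carries no weight in this count, since its knockout values in PD + LIF helped it past the limit for testing. The median log2 fold change of the 8 genes was -0.19 in 2i + LIF and -0.18 in PD + LIF, beside 0.00 and 0.01 over all genes. The difference between the knockout effects in the 2 media passed limma's test for 0 of the 8 genes and for 1.81% of all genes, and an unadjusted p under 0.05 was found for 1 of the 8, Hormad1, and for 19.0% of all genes.

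**Figure D3:**
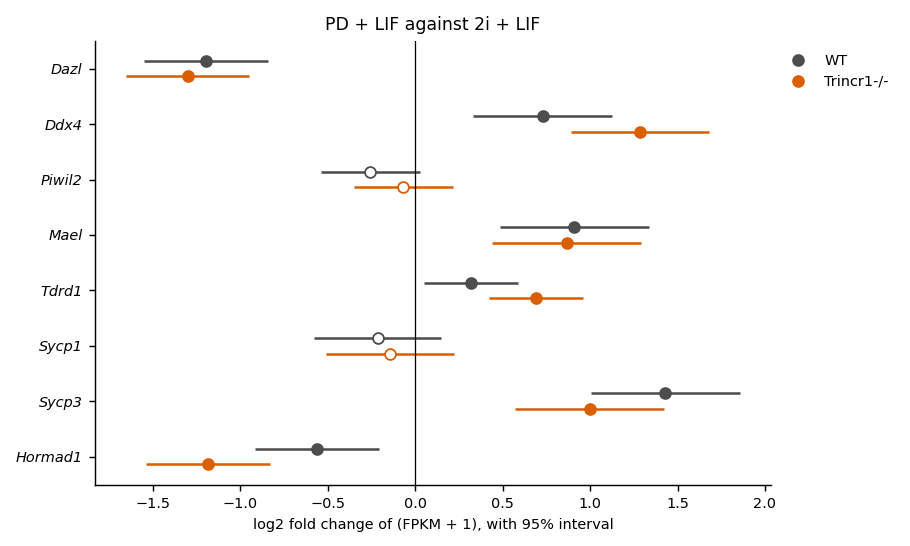
Log2 fold change of (FPKM + 1) in PD + LIF against 2i + LIF (horizontal axis) for the 8 tested genes in WT (grey) and Trincr1-/- ESCs (orange), with 95% intervals and filled points for an adjusted p under 0.05. Tdrd1 met the limit for testing only through PD + LIF, so its filled points are no evidence of a difference. Values run from -1.20 (Dazl) to 1.43 (Sycp3) in WT and from -1.30 (Dazl) to 1.29 (Ddx4) in the knockout.

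**Figure D4:**
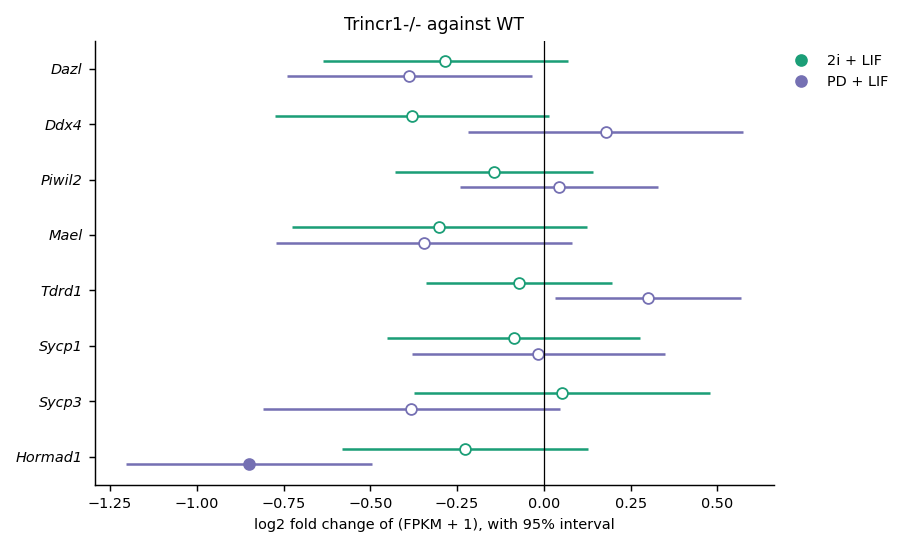
Log2 fold change of (FPKM + 1) in Trincr1-/- against WT ESCs (horizontal axis) for the 8 tested genes in 2i + LIF (green) and PD + LIF (purple), with 95% intervals and filled points for an adjusted p under 0.05. Hormad1 in PD + LIF, at -0.85, is the filled point.

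Other germline genes were called in both directions between the media, where 30.9% of all genes were higher and 21.3% lower in WT. Of 14 tested genes of the piRNA pathway and germ granule, 7 were higher and 3 lower in PD + LIF in WT ESCs, with Tdrd7 at a log2 fold change of 1.23 and Fkbp6 at -2.44. Of 15 tested meiotic chromosome genes, 5 were higher and 3 lower, with Smc1b at 1.37 and Dmc1, the meiotic recombinase, at 1.22. Of 11 tested genes of later germ cells, 2 were higher and 6 lower, with Tuba3a, a testis tubulin, at -1.83. Tdrkh, Meiob and Brdt, 1 gene of each list, had both 2i + LIF means under 0.2 FPKM. They met the limit for testing only through PD + LIF. Without them the counts in WT were 6 and 3 of 13, 4 and 3 of 14, and 2 and 6 of 10. These counts still hold genes with a group mean under 0.2 FPKM. Such means were those of Tdrd7 (0.0719 in WT), Exd1 (0.138 in the knockout) and Syce3 (0.180 in WT) in 2i + LIF. Spata22 had one in the knockout in PD + LIF (0.0707). The tests of these genes between media carry little weight. The piRNA list gave 7 higher and 5 lower with no filter on low values, and it gave 3 and 3 of 10, and the meiotic list 2 and 2 of 9, with a mean above 1 FPKM. In the knockout the higher and lower counts of these 3 lists were 4 and 4, 5 and 5, and 1 and 4, against 29.6% and 20.3% of all genes. Without Tdrkh, Meiob and Brdt they were 3 and 4 of 13, 5 and 5 of 14, and 1 and 4 of 10.

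Between genotypes in PD + LIF, 8 of the 40 tested genes of these 3 lists were lower and 0 higher in the knockout by limma. Of all genes 5.77% were lower and 6.29% higher. They were Tdrd5, Tdrd12 and Rnf17 of the piRNA pathway, Smc1b, Meiob and Stag3 of meiotic chromosomes, and Tuba3a and Tex14 of later germ cells. Meiob had means of 1.07 FPKM in WT and 0.340 FPKM in the knockout there, and its WT values took it past the limit for testing. Its test therefore carries no weight in this count. Smc1b, a meiotic cohesin subunit, was at 2.05 and 2.53 FPKM in WT and at 0.644 and 1.01 FPKM in the knockout (log2 fold change -0.85, limma adjusted p = 0.0151), and lost its call without replicate 1 of the knockout (0.0857) or replicate 2 of WT (0.0700) in PD + LIF. Tdrd12 was at 68.0 and 68.6 FPKM in WT and at 40.2 and 44.6 FPKM in the knockout (log2 fold change -0.68, limma adjusted p = 0.00279). With single samples left out, each list lost some of these calls, down to 1 lower gene per list, and Tuba3a and Tdrd12 kept theirs in each of these fits. Fitted on the 4 PD + LIF samples alone, the lower calls were 1, 0 and 1 in the 3 lists. In 2i + LIF only Tuba3a of the 3 lists was called lower, and its call was lost without 6 of the 8 samples.

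Among genes for the DNA methylation machinery, 7 of 16 were higher and 4 lower in PD + LIF in WT ESCs, against 30.9% and 21.3% of all genes. The de novo methyltransferase Dnmt3a was higher by a log2 fold change of 1.07, Dnmt3b by 0.71 and the dioxygenase Tet3 by 0.81, while Tet2 was lower by a log2 fold change of -2.21. In the knockout 7 were higher and 5 lower, against 29.6% and 20.3% of all genes. Between genotypes in PD + LIF, Dnmt3b was at 65.4 and 79.4 FPKM in WT and at 137 and 122 FPKM in the knockout (log2 fold change 0.83, limma adjusted p = 0.00389). Tet3 and Dnmt3l were also higher and Tet1 was lower there, and each of these 3 lost its call when single PD + LIF samples were left out. Among 14 genes of PRC1.6 and its partner repressors, 1 was higher and 8 lower in PD + LIF in WT ESCs, against 30.9% and 21.3% of all genes. The log2 fold changes were 1.06 for Yaf2 and -0.53 for Wdr5. Between genotypes in PD + LIF 1 was higher and 3 were lower, against 6.29% and 5.77% of all genes. Of these, Wdr5 kept its call in every fit that left out a sample. The part of these genes in the levels of the 10 germline genes was not tested.

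**Figure D5:**
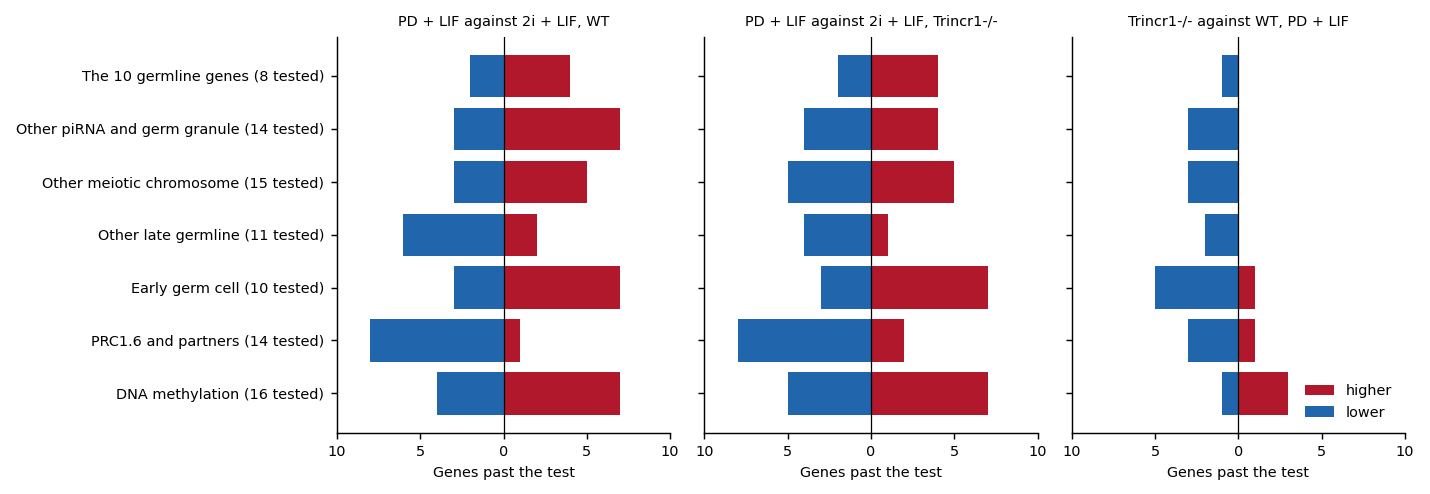
Number of genes (horizontal axes) called higher (red) or lower (blue) at a limma adjusted p under 0.05 in 7 gene lists, between media in WT, between media in Trincr1-/- and between genotypes in PD + LIF. The 10 germline genes give 4 higher, Tdrd1 among them, and 2 lower in both media comparisons, and the 3 lists of other germline genes show lower calls alone between genotypes. Meiob is among these lower calls, and its test carries no weight because of the limit for testing.

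Checks of the samples gave the following values. Trincr1 itself was at 5.70 and 9.45 FPKM in WT and at 0.0754 and 0 FPKM in the knockout in 2i + LIF, and at 6.18 and 6.56 FPKM against 1.38 and 0.746 FPKM in PD + LIF. Within the knockout it was higher in PD + LIF than in 2i + LIF (log2 fold change 0.98, limma adjusted p = 0.0105), so some signal from the locus remained in the medium where Hormad1 was called. Since low FPKM values are spaced by single fragments, the depth could be inferred, as 10310000 to 13990000 fragments per sample. All 8 ESC markers were expressed, with a summed level of 1804 to 1839 FPKM in 2i + LIF, 1121 to 1156 FPKM in WT and 919 to 952 FPKM in the knockout in PD + LIF. Of 8 primitive endoderm markers 5 passed the filter, and their sum over all 8 was 2.24 to 3.63 FPKM in 2i + LIF, 13.1 to 14.3 FPKM in WT and 20.7 to 23.2 FPKM in the knockout in PD + LIF, with Gata6 and Sox17 at no more than 0.125 and 0.128 FPKM. Of the 5, 3 were called higher in PD + LIF in WT (Gata4, Dab2 and Col4a1), beside 30.9% of all genes, and 5 in the knockout, beside 29.6%. Pdgfra, called in the knockout, had 2i + LIF means of 0.0974 FPKM in WT and 0.122 FPKM in the knockout. It met the limit for testing only through PD + LIF, so that call carries no weight. Foxa2 had a knockout mean of 0.0883 FPKM in 2i + LIF. Col4a1 and Foxa2 were called higher in the knockout between genotypes in PD + LIF. Col4a1 was at 8.72 and 8.45 FPKM in WT and at 15.4 and 13.7 FPKM in the knockout there. Of 8 fibroblast markers 4 passed, and the sum was 0.714 to 1.497 FPKM in 2i + LIF and 4.47 to 6.87 FPKM in PD + LIF, with Dcn at 0 in 7 of 8 samples. Of the 4, Col1a1 and Thy1 were called higher in PD + LIF in WT, and these and Col1a2 in the knockout. In 2i + LIF the WT and knockout means were 0.130 and 0.0699 FPKM for Col1a1 and 0.0931 and 0.131 FPKM for Col1a2. Both genes met the limit for testing only through PD + LIF, so their calls between media carry no weight. Col1a1 was also called between genotypes in PD + LIF, at 0.373 and 0.446 FPKM in WT and at 1.95 and 1.82 FPKM in the knockout. Of 10 two-cell-like markers 3 passed, and the sum was at most 3.63 FPKM. Of 8 testis somatic and spermatid markers 2 passed, the sum was 1.61 to 2.92 FPKM, and the protamine gene Prm2 was at 0 in all samples. The sums of ESC, primitive endoderm and fibroblast markers moved with the medium and, in PD + LIF, with the genotype, and their part in the results was not tested.

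RNA immunoprecipitation was done in ESCs that overexpressed FLAG-tagged TRIM71 and grew in 2i + LIF. The labels list replicates 1 and 2 of input, of the TRIM71 precipitate and of an empty control precipitate. The values, which hold 7 of the 10 genes, are given only as 1 for input and 1 for the TRIM71 precipitate. Input held 1.9 FPKM of Dazl, 3.8 of Ddx4, 2.7 of Mael, 1.8 of Sycp3, 3.9 of Hormad1, 5.0 of Piwil2 and 0.1 of Tdrd1. All but Piwil2 were listed at 0 in the precipitate. Piwil2 was at 2.2 FPKM there, which the authors' scaling turned into 4.8 against 5.0 in input. A value of 0 is common at such levels, since 73.9% of the 2635 transcripts with an input of 1.8 to 5.0 FPKM were at 0 in the precipitate. The depth of these libraries is unknown, so no statement on binding rests on these values.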

How the data were processed

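RNA-seq values of 8 ESC samples and a TRIM71 RNA immunoprecipitation were used. Per the submitters' processing notes, reads were aligned with STAR 2.5.0 and quantified with Cufflinks 2.2.1. The authors deposited FPKM values per gene and sample, and for the immunoprecipitation FPKM with a scaled signal for input and precipitate. Their column of enrichment folds holds their own comparison and was not used. The notes name mm9, but the loci match GRCm38, and starts were converted to count from 1. Of 41260 entries 41204 remained after merging repeated identifiers.

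Values were tested as log2(FPKM + 1) with limma 3.58.1 (R 4.3.3), all 4 groups in 1 fit with a variance trend, genes with a mean above 0.2 FPKM, Benjamini-Hochberg adjustment over 15430 genes and a threshold of 0.05. On simulated data 172 of 200 changed genes were recovered for the comparison of media in WT, with 4 false calls. The changed genes were drawn from those with a mean log2(FPKM + 1) above 1, so recovery of lower genes is unknown. Log2 fold changes smaller than 1 in size were not simulated. FPKM are not counts, so no count test was run, and depth was inferred from the steps of low values. The alternatives tried were pseudocount, filter, scaling, variance trend, samples in the fit, replicate block and leaving out each sample.

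All 10 members are named. Of other lists, at most the 4 called genes with the largest fold change per comparison are named, together with Trincr1 and markers. The genes whose pattern was most like that of Hormad1 are not reported here. Chpt1, Brdt, Exd1 and Spata22 were chosen after their values were seen. The members and lists were chosen with earlier results of these data known. Promoter sequences are from RefSeq. Matches between transcripts were searched with BLAST 2.17.0 at a minimum of 95% identity over 100 bases. The immunoprecipitation was not tested.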

Additional observations from a re-analysis of the deposited data

Results flagged for a closer look

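The knockout effect differed between PD + LIF and 2i + LIF, by limma's interaction term with adjustment over all 15430 genes, for 5 named genes and for none of the 8 tested germline genes of the report. The difference was -0.59 on the log2 scale for Tdrd12 (adjusted p = 0.0336), a Tudor domain protein of the piRNA pathway. It was -1.37 for Kit (adjusted p = 0.02002), a receptor of early germ cells. It was -1.08 for Dppa3 (adjusted p = 0.0397) and -0.85 for Ifitm1 (adjusted p = 0.0267), both markers of early germ cells. It was 0.93 for the methyltransferase Dnmt3b (adjusted p = 0.0285). Each of these calls was lost in 6 to 8 of the 8 fits that left out a sample. Far fewer of all genes were called for this term in each of those fits, so the losses are not particular to these 5 genes.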

How the results depend on the processing

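The counts of called members were recomputed under each alternative. No called fold change changed direction for a member or for a called gene named from the other germline, PRC1.6 and DNA methylation lists. Trincr1, Chpt1 and the cell type markers were not followed through the alternatives. Between genotypes in 2i + LIF and for the difference between media the count stayed at 0. Between genotypes in PD + LIF the main count was 1, beside 12.1% of all genes. It became 2 with no filter on low values, beside 6.82%, as Tdrd1 joined Hormad1 (limma adjusted p = 0.0422). It was 0 when only the samples of the contrast entered the fit, where fewer samples estimate the spread and 2.05% of all genes were called. Leaving out 1 sample left a single sample in its group. A smaller share of all genes was called in each of these fits and comparisons, so a lost call there is not particular to the members. Between media in WT the count of 6 lay between 5 and 7 in the alternatives that kept both samples of each group. The share of all genes called there lay between 36.0% and 59.5%. Tdrd1, which the filter let through only by its PD + LIF values, lost its call with upper quartile scaling (adjusted p = 0.0510) and in the contrast's own samples (0.0544), and Piwil2 gained one without the variance trend (0.0457). Tdrd1 also lost its call in 6 of the 8 fits that left out a sample. A mean above 1 FPKM as the filter left Tdrd1 out and gave 5 calls in each genotype. Replicates with the same number did not deviate together (correlations of -0.05 to 0.01 between groups), so they share only a number. With the replicate block the calls were 0 and 1 between genotypes in 2i + LIF and PD + LIF, 0 for the difference, 5 between media in WT and 6 in the knockout. With 2 samples a group and 10310000 to 13990000 fragments, Asz1 and Slc25a31, which stayed under 0.2 FPKM on average, rest on at most 9.5 and 4.0 estimated fragments per sample.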

Other observations

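Of 11 genes of early germ cell specification 10 were tested, and 7 were higher and 3 lower in PD + LIF in both WT and Trincr1-/- ESCs. Of all genes 30.9% were higher and 21.3% lower in WT, and 29.6% and 20.3% in the knockout. Dppa3, which protects maternal methylation marks, was at 44.1 and 34.3 FPKM in WT ESCs in 2i + LIF and at 185 and 165 FPKM in PD + LIF. In the knockout it was at 39.0 and 44.2 FPKM in 2i + LIF and at 82.0 and 93.9 FPKM in PD + LIF. Between genotypes in PD + LIF, 1 gene of this list, Lin28a, was higher and 5 were lower in the knockout, against 6.29% and 5.77% of all genes. Among the lower genes, Kit was at a log2 fold change of -1.35, Prdm1 at -1.19 and Dppa3 at -0.99. The number of lower genes ranged from 1 to 5 when single samples were left out, and Dppa3 lost its call without replicate 1 of either genotype in PD + LIF (limma adjusted p = 0.0542 without the WT sample and 0.0601 without the knockout sample).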
